A study of Mus musculus with 30 samples.

Results

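A set of 31 genes of the astrocyte, the star-shaped glial cell of the brain, was followed through fasting and refeeding in the mouse hypothalamus. It holds 22 homeostatic genes, which astrocytes of the healthy brain use, and 9 reactive genes, which rise when astrocytes respond to injury or inflammation. The members were matched by Ensembl identifier in 3 deposited count tables, whose identifiers name 55401 genes in all. All 31 were present in each table. The homeostatic genes were Aqp4, Kcnj10, Gja1, Gjb6, Mlc1, Slc1a2, Slc1a3, Glul, Slc6a11, Slc7a10, Fabp7, Acsbg1, Aldh1l1, Apoe, Clu, Agt, Sparcl1, Ntsr2, Fgfr3, S100b, Sox9 and Id3. The reactive genes were Gfap, C4b, Serpina3n, Lcn2, Osmr, Cd44, Timp1, Steap4 and S1pr3.

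Bulk RNA sequencing was done on hypothalamus of wild-type B6 mice, the C57BL/6 inbred strain. The fasting table holds fed mice, mice fasted for 24 h, mice fasted for 72 h and mice fasted for 72 h with exposure to cold (18 °C), with 3 libraries each. The refeeding table holds mice refed for 1 h (3 libraries), 12 h (3 libraries) or 1 week (4 libraries), all after a 72 h fast, and no fed group. The 1-month table holds mice refed for 1 month after a 72 h fast and their own fed controls, with 4 libraries each. The labels give no age and do not tie libraries to individual animals, so a p-value measures only the spread between these libraries.

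Astrocytes clear glutamate, GABA and potassium from the space around synapses, carry water at their endfeet on blood vessels, and feed neurons with lactate and glutamine. In the hypothalamus they also sense nutrients and hormones, and they touch the neurons that drive hunger and satiety. After injury or inflammation they thicken their intermediate filaments, and they secrete complement, protease inhibitors and other acute-phase proteins, in part through receptors that signal by way of gp130 and STAT3. In bulk tissue, fewer astrocytes and less RNA per astrocyte cannot be told apart.

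Library totals were 27111216 to 43397395 counts in the fasting table, 26115967 to 64269426 in the refeeding table and 9347942 to 13813956 in the 1-month table. Of 15 hypothalamic marker genes, 14 passed the filter on low counts in each table, and Kiss1 was listed at 0 in every library. Summed liver transcripts reached 1125 CPM in fed library 2 (CPM is the count relative to the library's TMM-scaled total) and 176 CPM in another fed library, against 3.26 CPM in the remaining one. They were 58.1 to 203 CPM after 24 h and 2.82 to 3.83 CPM after 72 h of fasting. Skeletal muscle transcripts summed to 1376 CPM in fed library 2, and to no more than 19.4 CPM in the other fasting-table libraries. In the 1-month table, refed library 2 held 98.1 CPM of liver transcripts. Each table was scaled and tested alone, and levels are not compared across tables.

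Differences in level were tested with edgeR's quasi-likelihood test over all genes of a table that passed the filter on low counts. A gene was called at a Benjamini-Hochberg adjusted p under 0.05. Fold changes are on the log2 scale, second group over first, with the standard error (SE). The filter kept all 22 homeostatic genes in every table. Among the reactive genes, Timp1 was not tested in the fasting and refeeding tables, Lcn2 was not tested in the refeeding and 1-month tables, and Steap4 was not tested in the 1-month table.

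The members span a wide range of levels. In RPKM (CPM per kilobase of exon, TMM scale), the fed controls of the 1-month table had most of Sparcl1, the synapse-promoting matrix protein hevin, at 865 ± 45.1 (SD, n = 4). Apoe, the lipid carrier, followed at 455 ± 24.3 and Glul, which makes glutamine from glutamate, at 454 ± 35.2. These differ by less than their SDs. Clu, the chaperone clusterin, was at 279 ± 19.3, and Agt, the precursor of the angiotensins, at 170.4 ± 14.3. Gfap, the intermediate filament protein that marks reactive astrocytes, was the highest reactive gene, at 60.1 ± 11.4. It lay within 1 SD of Slc1a2, Mlc1, Acsbg1, Slc1a3 and Ntsr2, which were between 55.0 and 65.2. C4b, a complement component, and Serpina3n, a secreted serine protease inhibitor, were at 21.7 ± 2.01 and 21.2 ± 5.32. The lowest were Osmr, the oncostatin M receptor, at 0.438 ± 0.0773, Steap4, a metalloreductase, at 0.0767 ± 0.0570, and Lcn2, the iron-binding lipocalin, at 0.0426 ± 0.0205. Steap4 and Lcn2 rest on 11 and 5 counts over those 4 libraries.

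Some members share sequence with another gene. Timp1, a metalloproteinase inhibitor, lies wholly inside Syn1 on the opposite strand. It was listed at 0 in all 22 libraries of the fasting and refeeding tables, and at 2.4, 2.17, 3.26 and 3.05 CPM in the fed controls and 3.24, 2.44, 3.11 and 2.85 CPM in the refed libraries of the 1-month table. Its 2 groups overlapped there. Of the exonic bases of S100b, a calcium-binding protein, 83.0% lie within the span of Dip2a, introns included, on the opposite strand. By the same measure, 100% of the exonic bases of Gfap lie within Gm26668 on the opposite strand, which no count table lists. The share within other genes was 34.9% for Aldh1l1 and 27.2% for Slc7a10. The library kit marks strand, but no source used here says whether the counting used it, so reads of such pairs may have been dropped or exchanged. C4b has the near-identical neighbour C4a, and Serpina3n belongs to a family of similar genes, so both counts are uncertain.

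**Figure D1:**
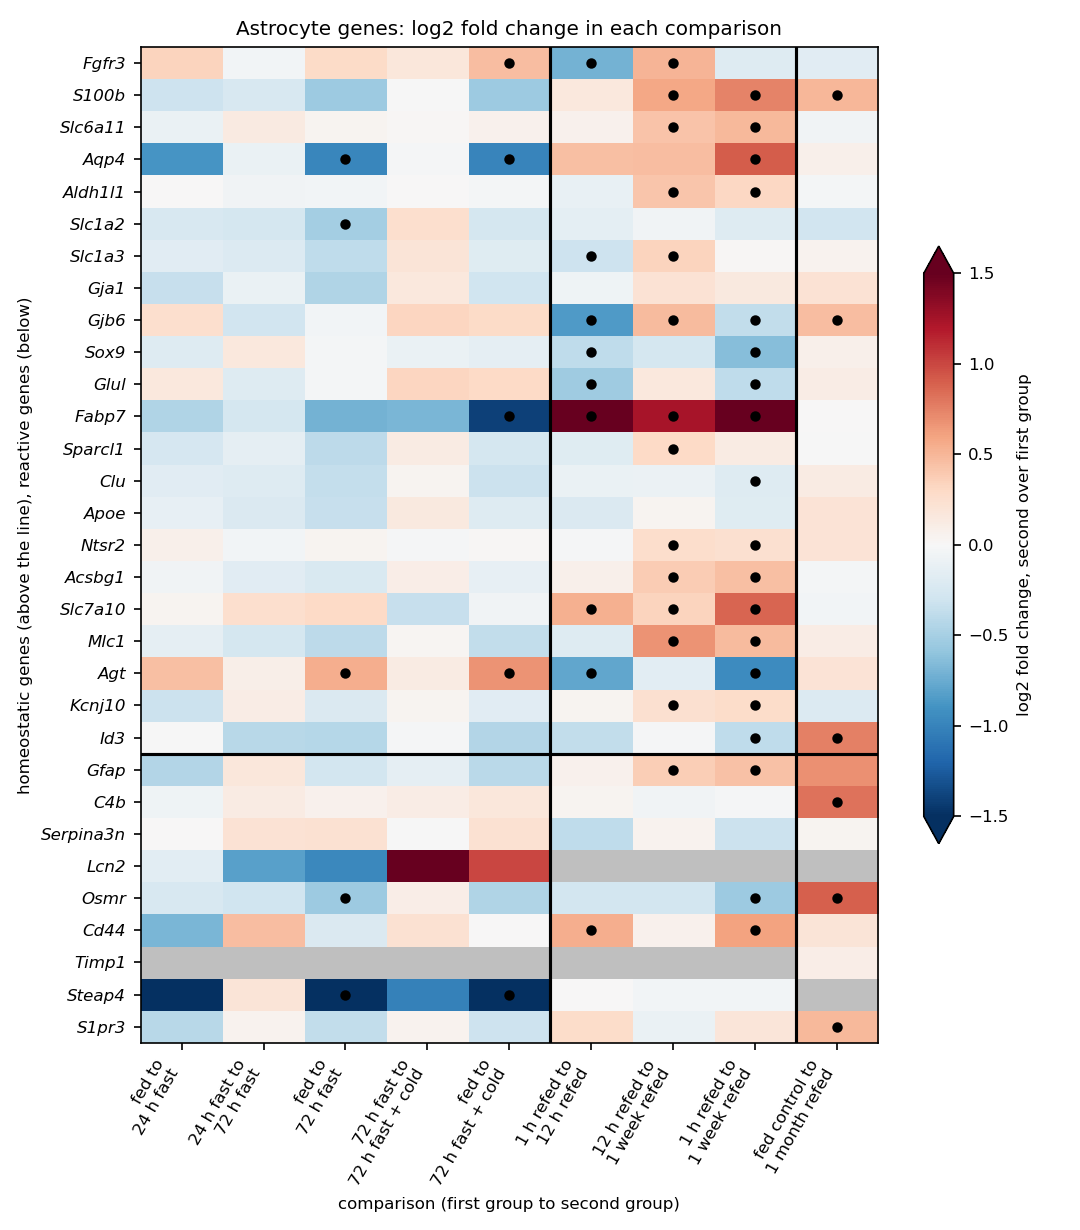
Log2 fold change of each member (rows, homeostatic above the horizontal line, reactive below) in each of the 9 comparisons (columns, the 3 tables set apart by vertical lines). Red is higher and blue lower in the second group, colours saturate at 1.5, black dots mark calls at adjusted p under 0.05 and grey marks genes not tested. Dots are most frequent in the refeeding columns, with 9, 14 and 19 calls.

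Fasting was compared first, within its table. After 24 h without food none of the 30 tested members was called, where 0.0343% of all 20408 tested genes were (0.0245% higher and 0.0098% lower). An unadjusted p under 0.05 was found for 8 of the 30 members and 2118 of the 20408 genes. DESeq2 called 4 of 29 members (Aqp4, Agt, Cd44 and Steap4) among 208 genes. From 24 h to 72 h none was called, against 1.63% of all genes (0.568% higher and 1.06% lower). There 2 of 30 members and 4799 of 20408 genes had an unadjusted p under 0.05, and DESeq2 called Cd44 alone of the members, among 1720 genes. The comparisons with the fed group share its 3 libraries.

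From fed to 72 h, 5 of 30 members were called, or 16.7%, where 15.1% of all genes were called. Agt alone rose, where 7.28% of all genes were called higher. Aqp4, Slc1a2, Steap4 and Osmr fell, where 7.78% of all genes were called lower. The median log2 fold change was -0.28 over the 22 homeostatic genes and -0.32 over the 8 reactive genes, and 0.01 over all genes.

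The Agt level was 152, 139 and 119.5 CPM in the fed libraries, 174, 211 and 178 CPM at 24 h, 200.1, 198 and 202 CPM at 72 h and 195, 221 and 237 CPM at 72 h with cold. Every fasted library lay above every fed one, at 24 h as well. The log2 fold change from fed to 72 h was 0.55 ± 0.11 (SE, edgeR adjusted p = 0.0133), a call lost without fed library 2 or 72 h library 3. From fed to 72 h with cold it was 0.67 ± 0.11 (SE, edgeR adjusted p = 0.00473), and this call was kept under every alternative.

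Aqp4, the water channel of the astrocyte endfoot, was at 266, 214 and 165 CPM in the fed libraries, 97.7, 151 and 101 CPM at 24 h, 115, 117 and 94.8 CPM at 72 h and 80.3, 95.5 and 149 CPM with cold. All 9 fasted libraries were below the 3 fed libraries, and the 3 fasted groups overlapped each other. The log2 fold change from fed to 72 h was -0.98 ± 0.24 (SE, edgeR adjusted p = 0.0265), and to 72 h with cold -0.99 ± 0.24 (SE, edgeR adjusted p = 0.0206). The first call was lost without any 1 of 5 libraries and the second without any 1 of 3. At 24 h it was -0.88 ± 0.24 (SE, edgeR adjusted p = 0.285), which did not pass.

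Slc1a2, the main glutamate transporter of the forebrain (GLT-1), was at 3366, 3282 and 2748 CPM when fed and 2402, 3040.5 and 2483 CPM at 24 h. It was at 2229, 2073 and 2298 CPM at 72 h and 2614, 2559.5 and 2682 CPM with cold. The 72 h libraries were below all others of the table, and the fold change from fed was -0.51 ± 0.13 (SE, edgeR adjusted p = 0.0246). With cold it was -0.26 ± 0.13 (SE, edgeR adjusted p = 0.157), which did not pass. The difference between 72 h and 72 h with cold, 0.25 ± 0.13 (SE, edgeR adjusted p = 0.817), did not pass either. The call at 72 h was lost without any 1 of 5 libraries.

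Of the reactive genes, Steap4 was at 0.645, 3.59 and 1.02 CPM in the fed libraries, 0.344, 0.406 and 0.296 CPM at 24 h, 0.298, 0.334 and 0.545 CPM at 72 h and 0.214, 0.0951 and 0.27 CPM with cold. The highest value by far was in fed library 2, the one rich in liver and muscle transcripts. Its log2 fold change from fed to 72 h was -2.14 ± 0.58 (SE, edgeR adjusted p = 0.031), and without that library -1.08 (edgeR adjusted p = 0.183). The call was also lost without any 1 of the 3 libraries of 72 h and with the 2 groups fitted alone. From fed to 72 h with cold it was -3.15 ± 0.63 (SE, edgeR adjusted p = 0.00871), and without that library -2.10 (edgeR adjusted p = 0.0374).

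Osmr was at 9.14, 7.08 and 9.05 CPM when fed, 7.29, 6.46 and 7.55 CPM at 24 h, 6.47, 5.92 and 4.95 CPM at 72 h and 6.23, 6.91 and 5.38 CPM with cold. The fed and 72 h libraries did not overlap, and the fold change was -0.54 ± 0.16 (SE, edgeR adjusted p = 0.0416). This call was lost when any 1 of the 6 libraries was left out.

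Cold added to the 72 h fast gave no call among the members, nor among all 20408 genes (0%) with edgeR. At an unadjusted p under 0.05 there were 3 members and 1296 genes, and DESeq2 called 53 genes, none of them a member. The homeostatic median was 0.04 and the reactive median 0.08. They became -0.06 and -0.02 when libraries were scaled by their totals alone, a scaling that also moved the median of all genes from 0.00 to -0.10.

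Against the fed group, the cold-exposed fasted libraries had 5 of 30 members called, or 16.7%, where 17.9% of all genes were called. Agt and Fgfr3 rose, where 8.78% of all genes were called higher. Steap4, Aqp4 and Fabp7 fell, where 9.16% of all genes were called lower. Fgfr3, a fibroblast growth factor receptor, was at 102, 94.7 and 82.2 CPM when fed and 107, 130.4 and 114 CPM at 24 h. It was at 114, 113 and 114 CPM at 72 h and 111, 132 and 141 CPM with cold. All fasted libraries were above the fed ones, and the fold change with cold was 0.46 ± 0.11 (SE, edgeR adjusted p = 0.0182). This call was lost without fed library 2 or cold-exposed library 2 or 3, with adjusted p values up to 0.058.

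Fabp7, the brain fatty acid binding protein, was at 22, 17.3 and 13.4 CPM when fed, 8.73, 19.7 and 10.3 CPM at 24 h, 12.1, 14.4 and 5.7 CPM at 72 h and 6.6, 5.04 and 8.32 CPM with cold. Its 72 h libraries overlapped the fed ones, whereas the cold-exposed libraries lay below all 3. The fold change with cold was -1.40 ± 0.38 (SE, edgeR adjusted p = 0.0285), and at 72 h without cold -0.71 ± 0.37 (SE, edgeR adjusted p = 0.185), which did not pass. The call with cold was lost without fed library 1 or 2 or cold-exposed library 1 or 2, and without the filter on low counts, with adjusted p values up to 0.0954.

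**Figure D2:**
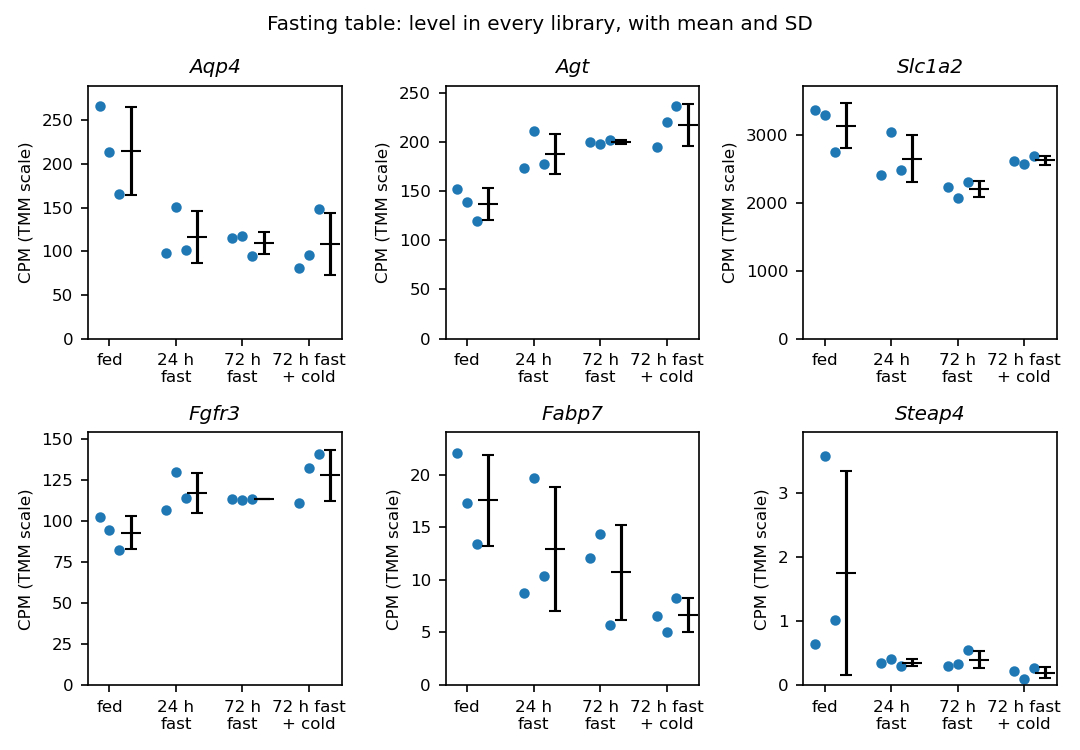
Levels of 6 members in the fasting table. The horizontal axis gives the 4 groups and the vertical axis CPM on the TMM scale, starting at 0. Each blue point is a library (3 per group), and the black bar beside them is the mean with its SD. Agt sits higher and Aqp4 lower in every fasted library than in the fed ones, and the fed Steap4 mean rests mostly on 1 library at 3.59 CPM.

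Within some groups 1 library held the lowest or highest value of most members. Fed library 3 had the lowest value of its group for 25 of 30 tested members. The second 24 h library had the highest for 28 of 30, and the third cold-exposed library for 25 of 30. Markers of some other cells had the same extremes: summed oligodendrocyte, oligodendrocyte precursor and microglial markers were lowest of their group in that fed library and highest in those 24 h and cold-exposed libraries. Other lists went the other way. Fed library 3 had the highest tanycyte (421 CPM), ependymal (68.7 CPM) and choroid plexus (267 CPM) sums of its group. Endothelial markers were lowest in that 24 h library (341 CPM), and tanycyte markers in that cold-exposed library (426 CPM). Oligodendrocyte markers, for example, summed to 3823 CPM in fed library 3 against 5025 and 6099 CPM in the other fed libraries. Gfap shows the spread: it was at 183, 193 and 124 CPM when fed, 105, 149.5 and 115 CPM at 24 h, 155, 165 and 94.1 CPM at 72 h and 71.9, 122 and 184 CPM with cold. These groups overlapped, and the fold change from fed to 72 h was -0.27 ± 0.32 (SE, edgeR adjusted p = 0.568). Lcn2 was at 0.0271 to 0.550 CPM in the table.

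Without fed library 2, the calls from fed to 72 h dropped from 5 members to 0 and from 3072 to 456 genes. Without fed library 3 they came to 10 members among 5446 genes, and without fed library 1 to 2 among 830. They came to 1 member among 1056 genes without 72 h library 1, 1 among 712 without 72 h library 2 and 0 among 434 without 72 h library 3. From fed to 72 h with cold, 3 members were called without fed library 1 (1596 genes in all), fed library 2 (1132 genes) or cold-exposed library 1 (932 genes), against 5 among 3661 with all libraries. Without cold-exposed library 2 there were 2 among 2036 genes, without cold-exposed library 3 there were 4 among 2437, and without fed library 3 there were 7 among 5507. Agt and Steap4 stood in each of these counts with cold. Liver also makes Apoe, Clu, Agt, Serpina3n, C4b and Steap4. Leaving out fed library 2 moved the mean fed level of Agt from 136.8 to 135.8 CPM, of Clu from 517 to 519, of Apoe from 873 to 828 and of Serpina3n from 21.2 to 19.6. C4b moved from 36.6 to 32 CPM and Steap4 from 1.75 to 0.835 CPM.

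Other lists place these values beside those of other cells. Among 31 tested further astrocyte genes, 3 were called higher and 6 lower from fed to 72 h, with a median of -0.16. The smallest adjusted p values were those of S1pr1 (-0.73 ± 0.12 SE, edgeR adjusted p = 0.00854) and Chrdl1 (-1.06 ± 0.19 SE, edgeR adjusted p = 0.0098). Endothelial markers fell in 6 of 10, microglial in 3 of 8, and summed blood transcripts were 7.35 to 16.2 CPM when fed and 0.841 to 2.33 CPM at 72 h. Striatal markers summed to 888 to 1529 CPM when fed and 651 to 736 CPM at 72 h. The part of these shifts in the members' values was not tested. Across all genes, the log2 fold change from fed to 72 h had a Spearman correlation of 0.23 with gene span. In further reactive lists, 1 of 4 pan-reactive, 1 of 8 ischaemia-type and 3 of 9 complement genes fell from fed to 72 h. None of 9 lipopolysaccharide-type genes was called. With cold, 3, 2 and 3 genes of those lists fell, and of the lipopolysaccharide-type genes 3 fell and 1 rose. Over all genes 7.78% were called lower at 72 h and 9.16% with cold.

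Refeeding was compared within its table, where the 1 h, 12 h and 1 week groups are each used in 2 comparisons. From 1 h to 12 h, 9 of 29 tested members were called, or 31%, where 14.2% of all 19932 tested genes were called. Fgfr3, Gjb6, Glul, Agt, Sox9 and Slc1a3 fell, where 7.14% of all genes were called lower. Fabp7, Slc7a10 and Cd44 rose, where 7.08% of all genes were called higher. From 12 h to 1 week, 14 were called and all rose, or 48.3%, where 11.6% of all genes were called, 6.56% higher and 5% lower. From 1 h to 1 week, 19 were called, or 65.5%, where 26.9% of all genes were called. Of these, 12 rose and 7 fell, where 13.5% of all genes were called in each direction.

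The promoters of 5 of the members that moved between 1 h and 12 h are shown because the first 3 fell together and the other 2 rose together. Each is the 250 bases before the start site that RefSeq gives on GRCm38.p6, written 5′ to 3′ in the direction of the gene. Capitals mark a match to TTCNNNGAA, the palindromic core bound by STAT factors.
Agt (chr8:124569707-124569956, minus strand): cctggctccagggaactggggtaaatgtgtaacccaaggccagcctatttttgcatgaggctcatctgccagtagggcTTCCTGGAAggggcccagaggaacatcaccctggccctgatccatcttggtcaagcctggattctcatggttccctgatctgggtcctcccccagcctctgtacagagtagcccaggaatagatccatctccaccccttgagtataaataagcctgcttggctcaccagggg
Gjb6 (chr14:57133612-57133861, minus strand): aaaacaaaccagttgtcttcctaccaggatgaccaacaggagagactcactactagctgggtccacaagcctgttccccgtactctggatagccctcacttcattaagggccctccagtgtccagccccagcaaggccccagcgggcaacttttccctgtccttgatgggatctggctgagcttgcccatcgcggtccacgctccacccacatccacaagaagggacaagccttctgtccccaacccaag
Glul (chr1:153899679-153899928, plus strand): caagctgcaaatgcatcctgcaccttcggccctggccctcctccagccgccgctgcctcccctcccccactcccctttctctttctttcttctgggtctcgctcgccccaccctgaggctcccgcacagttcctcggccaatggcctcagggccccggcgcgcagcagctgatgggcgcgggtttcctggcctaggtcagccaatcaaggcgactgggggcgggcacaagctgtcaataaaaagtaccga
Fabp7 (chr10:57784673-57784922, plus strand): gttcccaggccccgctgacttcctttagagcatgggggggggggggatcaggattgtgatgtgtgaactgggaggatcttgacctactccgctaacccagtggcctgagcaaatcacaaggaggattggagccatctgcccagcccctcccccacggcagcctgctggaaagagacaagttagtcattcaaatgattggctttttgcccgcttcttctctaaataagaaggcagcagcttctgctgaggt
Slc7a10 (chr7:35186135-35186384, plus strand): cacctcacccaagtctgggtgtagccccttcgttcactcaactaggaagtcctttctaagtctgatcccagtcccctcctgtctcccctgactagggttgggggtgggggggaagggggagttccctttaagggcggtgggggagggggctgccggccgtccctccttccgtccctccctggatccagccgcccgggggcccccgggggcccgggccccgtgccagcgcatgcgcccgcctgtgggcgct
RefSeq promoters were found for 26 of the 31 members. The Agt match begins 172 bases before the start site, and the other 4 promoters hold none. The letters TTCNNNGAA occur in 7.02% of all 32851 promoters of this length and in 5 of 29 promoter rows of members (Acsbg1, Agt, Ntsr2, Slc1a3 and Steap4). The letters AGAACA, a hexamer of the glucocorticoid response element searched on both strands, occur in 16.1% of all promoters and in 4 of 29 rows (Apoe, Kcnj10, Serpina3n and Slc1a3). The full palindromic glucocorticoid response element, searched without mismatches, occurs in 3 promoters of all genes and the full nuclear factor I palindrome in 12, none of them a member's. These are matches of letters in these windows only.

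Among the genes that fell after 1 h, Agt was at 284, 295 and 276 CPM at 1 h, 174, 186 and 139 CPM at 12 h and 149.7, 179, 127 and 139 CPM at 1 week. The 1 h libraries were above all others, and the later groups overlapped. Its log2 fold change was -0.78 ± 0.12 (SE, edgeR adjusted p = 0.0017) from 1 h to 12 h and -0.94 ± 0.11 (SE, edgeR adjusted p = 0.000107) from 1 h to 1 week.

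Gjb6, which encodes the gap junction protein connexin 30, was at 78.5, 79.1 and 86 CPM at 1 h, 45.5, 44.6 and 45.3 CPM at 12 h and 53.1, 76.9, 58.5 and 62.4 CPM at 1 week. The 12 h libraries were lowest, the 1 h libraries highest, and no groups overlapped. It fell to 12 h by 0.85 ± 0.11 (SE, edgeR adjusted p = 0.000388) and then rose by 0.47 ± 0.10 (SE, edgeR adjusted p = 0.0094). At 1 week it was still lower than at 1 h, with -0.37 ± 0.10 (SE, edgeR adjusted p = 0.0112). The rise was lost without 12 h library 3 and the last difference without 1 h library 3.

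Fgfr3 followed the same order, at 142, 142 and 129.6 CPM at 1 h, 92.5, 84.6 and 76.7 CPM at 12 h and 116, 126, 125 and 117 CPM at 1 week. The 3 groups did not overlap. The fold change was -0.71 ± 0.07 (SE, edgeR adjusted p = 6.99e-05) to 12 h and 0.51 ± 0.07 (SE, edgeR adjusted p = 0.000748) from there to 1 week, and -0.19 ± 0.07 (SE, edgeR adjusted p = 0.0508) between the ends did not pass.

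Glul was at 1240.2, 1298 and 1305 CPM at 1 h, 975, 821 and 864 CPM at 12 h and 876, 1056, 1006 and 1014 CPM at 1 week. The 1 h libraries were above the others, and the later groups overlapped. The fold change was -0.53 ± 0.08 (SE, edgeR adjusted p = 0.00125) to 12 h and -0.38 ± 0.08 (SE, edgeR adjusted p = 0.00266) to 1 week.

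Sox9, a transcription factor of astrocytes, was at 58.8, 68.7 and 50.2 CPM at 1 h, 48.6, 42.8 and 45.1 CPM at 12 h and 39.1, 39.9, 37.1 and 35.7 CPM at 1 week. Slc1a3, the glutamate transporter GLAST, was at 425, 500.3 and 444 CPM at 1 h, 385, 345 and 369 CPM at 12 h and 459, 515, 449.9 and 431 CPM at 1 week. Sox9 was lower at each later time with no overlap, whereas Slc1a3 was lowest at 12 h and overlapped the 1 h range at 1 week. From 1 h to 12 h the fold change was -0.38 ± 0.09 (SE, edgeR adjusted p = 0.0163) for Sox9 and -0.32 ± 0.08 (SE, edgeR adjusted p = 0.0196) for Slc1a3. Both calls were lost without 1 h library 2, 12 h library 2 or 12 h library 3.

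Fabp7 rose at both steps. It was at 3.31, 3.62 and 2.33 CPM at 1 h, 11.1, 7.46 and 7.47 CPM at 12 h and 21.2, 23, 18.4 and 19.1 CPM at 1 week, and no groups overlapped. The fold change was 1.49 ± 0.19 (SE, edgeR adjusted p = 0.00041) to 12 h, 1.24 ± 0.16 (SE, edgeR adjusted p = 0.000706) from 12 h to 1 week and 2.73 ± 0.17 (SE, edgeR adjusted p = 8.43e-07) over the whole span. The last is a 6.63-fold rise, and all 3 calls were kept under every alternative.

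Slc7a10, a transporter of D-serine and other small neutral amino acids, was at 18, 20.9 and 19.7 CPM at 1 h, 26.4, 29.1 and 29.6 CPM at 12 h and 39.1, 35.8, 35.2 and 33.5 CPM at 1 week. It too was higher at each later time with no overlap. The fold change was 0.54 ± 0.08 (SE, edgeR adjusted p = 0.00113) to 12 h and 0.34 ± 0.08 (SE, edgeR adjusted p = 0.0114) from there to 1 week.

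Cd44, the hyaluronan receptor and a reactive gene, was at 5.95, 8.15 and 6.67 CPM at 1 h, 9.38, 10.3 and 10.5 CPM at 12 h and 10.3, 13, 9.2 and 9.74 CPM at 1 week. The 1 h libraries were below the others, and the later groups overlapped. The fold change to 12 h was 0.54 ± 0.14 (SE, edgeR adjusted p = 0.0217), lost without 1 h library 1 or 3 or 12 h library 2 or 3. To 1 week it was 0.61 ± 0.13 (SE, edgeR adjusted p = 0.004), kept under every alternative.

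**Figure D3:**
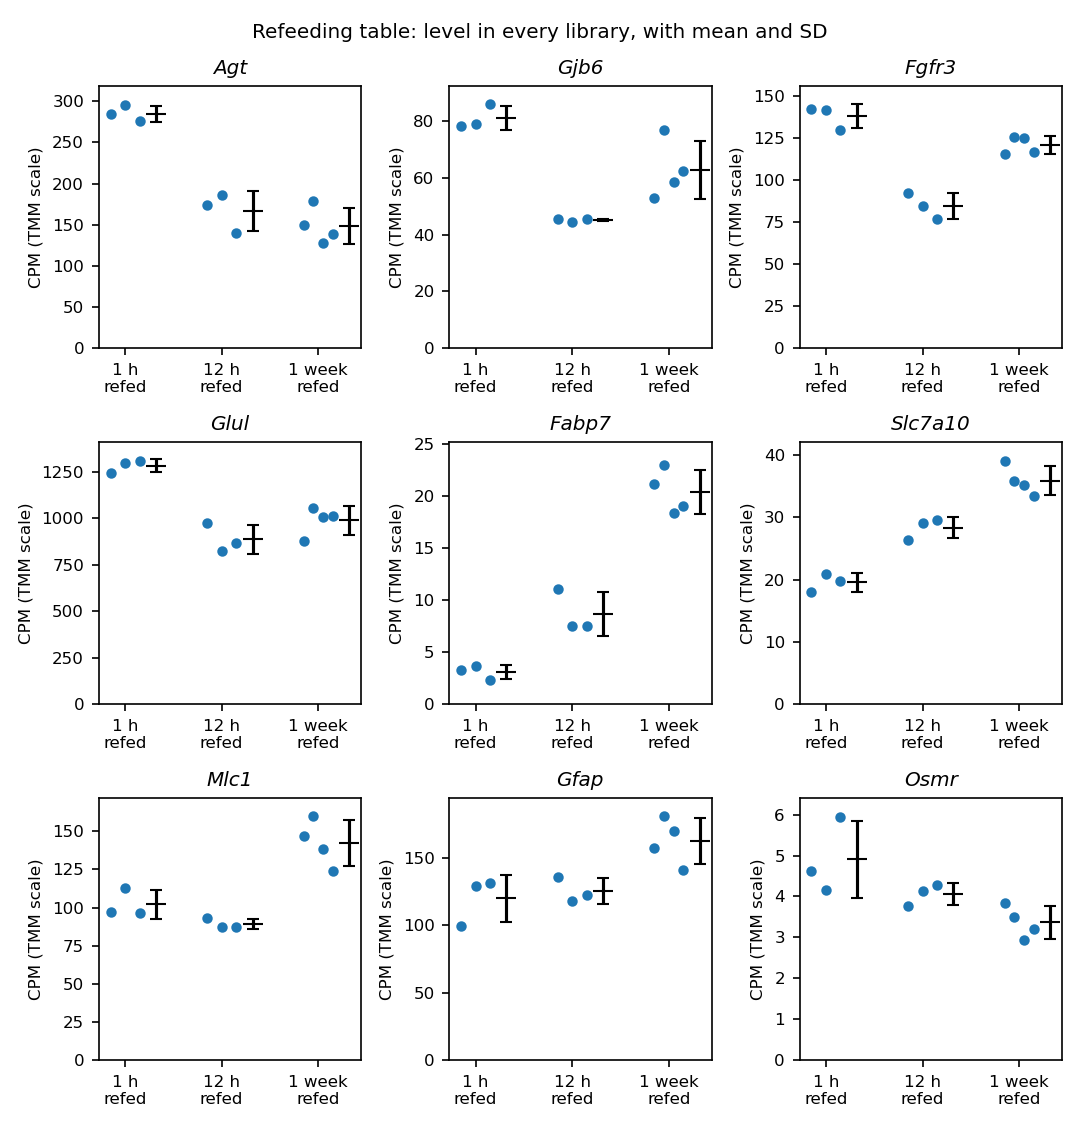
Levels of 9 members in the refeeding table. The horizontal axis gives the time of refeeding after a 72 h fast and the vertical axis CPM on the TMM scale, starting at 0. Blue points are libraries (3 at 1 h and 12 h, 4 at 1 week), and the black bar is the mean with its SD. Agt and Glul are highest at 1 h, Gjb6 and Fgfr3 are lowest at 12 h, and Fabp7 and Slc7a10 are higher at each later time.

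Between 12 h and 1 week 13 of 22 homeostatic genes rose and none fell, with a median of 0.32 against -0.01 over all genes. Of the 7 tested reactive genes Gfap alone rose, with a median of -0.05. Beside Fabp7, Slc7a10, Gjb6, Fgfr3 and Slc1a3, the homeostatic genes that rose were Mlc1, S100b, Acsbg1, Aldh1l1, Slc6a11, Ntsr2, Sparcl1 and Kcnj10.

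Mlc1, a membrane protein of endfeet, was at 97.4, 113 and 96.2 CPM at 1 h, 93.3, 87 and 87.3 CPM at 12 h and 147, 159.96, 138 and 124 CPM at 1 week. S100b was at 6.5, 6.34 and 6.28 CPM at 1 h, 7.15, 7.4 and 6.82 CPM at 12 h and 10.9, 11, 10.7 and 10.03 CPM at 1 week. The 1 week libraries of both were above all earlier ones. The fold change from 12 h was 0.67 ± 0.08 (SE, edgeR adjusted p = 0.000473) for Mlc1 and 0.58 ± 0.09 (SE, edgeR adjusted p = 0.00137) for S100b.

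Slc6a11, the GABA transporter GAT-3, was at 526, 589 and 489 CPM at 1 h, 573, 594 and 513 CPM at 12 h and 791, 799, 711 and 704 CPM at 1 week. Acsbg1, which activates long-chain fatty acids, was at 96.2, 105 and 96.4 CPM at 1 h, 106, 102 and 106 CPM at 12 h and 133, 144, 138 and 128 CPM at 1 week. Aldh1l1, a folate enzyme widely used to mark astrocytes, was at 43.4, 37.7 and 44.1 CPM at 1 h, 35.7, 37.4 and 42.7 CPM at 12 h and 50.7, 52.6, 50.2 and 52.7 CPM at 1 week. All 3 had their highest values at 1 week, with no overlap. Their fold changes from 12 h were 0.42 ± 0.08, 0.38 ± 0.06 and 0.42 ± 0.07 (SE), with edgeR adjusted p values of 0.0051, 0.00187 and 0.00303.

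Ntsr2, a neurotensin receptor, was at 92.6, 95.1 and 101 CPM at 1 h, 97, 93.3 and 94.2 CPM at 12 h and 109, 121, 116 and 111 CPM at 1 week. Kcnj10, the potassium channel Kir4.1, was at 243, 282 and 235 CPM at 1 h, 275, 257 and 249 CPM at 12 h and 315, 329, 299.9 and 287 CPM at 1 week. Sparcl1 was at 1069, 1174 and 1077 CPM at 1 h, 1071, 961 and 908 CPM at 12 h and 1169, 1356, 1182 and 1126 CPM at 1 week. The 1 week libraries were above those of 12 h for all 3, while those of Sparcl1 overlapped the 1 h range. From 12 h the fold change was 0.27 ± 0.06 (SE, edgeR adjusted p = 0.0106) for Ntsr2, 0.24 ± 0.07 (SE, edgeR adjusted p = 0.0475) for Kcnj10 and 0.30 ± 0.08 (SE, edgeR adjusted p = 0.0255) for Sparcl1. Each of these calls was lost without at least 1 library.

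Aqp4 was at 53.6, 59.6 and 63.1 CPM at 1 h, 104, 63.7 and 73.6 CPM at 12 h and 112, 117, 114 and 98.6 CPM at 1 week. The 12 h libraries reached into the 1 week range, and the 1 h libraries were below all others. It was called from 1 h to 1 week, with a log2 fold change of 0.91 ± 0.14 (SE, edgeR adjusted p = 0.00132). With no fed group in the same table, these levels cannot be set against a fed level.

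Gfap was at 99.8, 129 and 132 CPM at 1 h, 136, 118 and 122 CPM at 12 h and 158, 181, 171 and 141 CPM at 1 week. The 1 week libraries were above all others, the lowest of them at 141 CPM beside a 12 h library at 136 CPM. The fold change was 0.37 ± 0.10 (SE, edgeR adjusted p = 0.033) from 12 h, lost without any 1 of 5 libraries, and 0.44 ± 0.10 (SE, edgeR adjusted p = 0.00726) from 1 h, kept under every alternative.

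Osmr, Id3 and Clu were called lower at 1 week than at 1 h. Osmr was at 4.62, 4.15 and 5.95 CPM at 1 h, 3.77, 4.14 and 4.28 CPM at 12 h and 3.84, 3.49, 2.92 and 3.2 CPM at 1 week. The 1 h and 1 week libraries did not overlap, and the fold change was -0.55 ± 0.15 (SE, edgeR adjusted p = 0.0119). Without 1 h library 3 it was -0.39 (edgeR adjusted p = 0.086), and the call was lost. Id3, an inhibitor of transcription factors, was at 15.7, 13.8 and 11.9 CPM at 1 h, 11.8, 10.8 and 9.65 CPM at 12 h and 11.2, 9.54, 12.8 and 8.6 CPM at 1 week. Clu was at 506, 516 and 489 CPM at 1 h, 493, 458 and 458 CPM at 12 h and 421, 471, 466 and 408 CPM at 1 week. Between 1 h and 1 week Id3 overlapped and Clu did not. For Id3 the fold change was -0.38 ± 0.13 (SE, edgeR adjusted p = 0.0454). For Clu it was -0.19 ± 0.07 (SE, edgeR adjusted p = 0.0459). Both calls were lost without any 1 of 5 libraries.

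The members not called at any step of refeeding were Slc1a2, Gja1, Apoe, C4b, Serpina3n, Steap4 and S1pr3. Gja1 encodes connexin 43, the other main astrocyte gap junction protein, and S1pr3 is a receptor for sphingosine 1-phosphate. Slc1a2 stood at 2103, 2085 and 2104 CPM at 1 h and 1628, 1786, 2012 and 1893 CPM at 1 week. C4b stood at 41.9, 43.3 and 50.2 CPM at 1 h and 44.8, 52.4, 39.2 and 42.8 CPM at 1 week. Lcn2, not tested, was at 0.0420 to 0.350 CPM in the table.

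Other gene lists gave these counts over the same libraries. Of 21 tested glucocorticoid-responsive genes, 18 fell from 1 h to 12 h and none rose, with a median of -1.12. Plin4, a lipid droplet protein, fell from 94.5 ± 8.97 to 8.85 ± 1.92 CPM (SD, n = 3) and Mt1, a metallothionein, from 158 ± 12.6 to 52.3 ± 3.62 CPM. Of 31 further astrocyte genes, 3 rose and 6 fell from 1 h to 12 h, and Fam107a fell from 341 ± 51.1 to 196 ± 21.6 CPM. From 12 h to 1 week 11 of the 31 rose and none fell, with a median of 0.17. Ppp1r3c, which targets a phosphatase to glycogen, rose from 24.5 ± 1.39 to 38.3 ± 2.80 CPM. Of 11 genes of the gp130 and STAT3 pathway, 1 rose and 2 fell from 1 h to 12 h, and none was called between 12 h and 1 week. From 1 h to 1 week 3 of them fell (Lifr, Jak2 and Il6ra) and 2 rose.

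The 1 week libraries differed from the others in more than time. Their totals were 46909406 to 64269426 counts, against 26115967 to 34051433 for the earlier times. Summed blood transcripts were 68.4 to 123 CPM at 1 h, 76.4 to 119.5 CPM at 12 h and 401 to 1257 CPM at 1 week, and meningeal markers 39.8 to 94.1, 83.1 to 96.9 and 123 to 164 CPM. Striatal markers summed to 1012 to 2088 CPM at 1 h, 1778 to 2202 CPM at 12 h and 782 to 1944 CPM at 1 week. From 12 h to 1 week all 12 had negative fold changes (median -0.64), and none was called. Of 14 tested hypothalamic markers, 10 had positive fold changes at that step (median 0.13) and 1 was called lower. Markers of other brain cells were called as well from 1 h to 1 week: 7 of 8 tested microglial markers rose (median 0.55), 5 of 7 ependymal markers rose (median 0.65), and of 10 oligodendrocyte markers 7 rose and 3 fell (median 0.41). All 4 tested blood markers and 4 of 8 meningeal markers rose. Of 8 thalamic, 8 choroid plexus and 10 mural markers, 2 of each list rose and 2 fell. Of 9 neuronal markers 1 rose and 1 fell, of 10 tanycyte markers 1 rose and 1 fell, and of 6 oligodendrocyte precursor markers 1 rose and 1 fell. Of 10 endothelial markers 2 fell, of 14 hypothalamic markers 2 fell, and of 5 liver markers 1 fell. No striatal or skeletal muscle marker was called. The share of calls thus differed between lists, where 26.9% of all genes were called. The part of depth or of these transcripts in the members' values was not tested. Library 2 of 1 week had the highest value of its group for 21 of 29 tested members, and 12 h library 1 for 19 of 29. Without 12 h library 3, 8 members were called from 12 h to 1 week, among 589 genes in all. From 1 h to 12 h, 6 to 10 members were called among 1314 to 3537 genes when any 1 library was left out, against 9 among 2834.

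At 1 month of refeeding, 6 of 29 tested members were called, or 20.7%, where 10.1% of all 14867 tested genes were called. All 6 rose, where 6.37% of all genes were called higher and 3.76% lower. They were the reactive genes C4b, Osmr and S1pr3 and the homeostatic genes Gjb6, S100b and Id3. The median log2 fold change was 0.49 over the 7 tested reactive genes and 0.07 over the 22 homeostatic genes, against 0.00 over all genes. Every tested reactive gene had a positive fold change, from 0.04 to 0.90.

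C4b was at 117, 140.2, 121 and 115 CPM in the fed controls and 241, 255, 212 and 159 CPM in the refed libraries. All 4 refed libraries were above all 4 controls. The log2 fold change was 0.81 ± 0.13 (SE, edgeR adjusted p = 0.00171), a 1.76-fold rise kept under every alternative. Without refed library 2, the one with liver transcripts, the refed mean moved from 217 to 204 CPM.

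Osmr was at 5.95, 4.49, 4.51 and 6.26 CPM in the controls and 10.2, 11.9, 8.0 and 9.19 CPM after refeeding, with no overlap. Its fold change was 0.90 ± 0.17 (SE, edgeR adjusted p = 0.00341). S1pr3 was at 7.2, 8.67, 8.44 and 8.23 CPM in the controls and 10.4, 12.9, 12.5 and 9.93 CPM after refeeding, also with no overlap, and its fold change was 0.49 ± 0.14 (SE, edgeR adjusted p = 0.0348). The S1pr3 call was lost without any 1 of 5 libraries.

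Gfap was at 265, 317, 218 and 214 CPM in the controls and 421, 517, 424 and 267 CPM after refeeding. In 3 refed libraries it was above every control, and in refed library 5 within the control range. The fold change of 0.69 ± 0.22 (SE, edgeR adjusted p = 0.0922) did not pass. Without refed library 5 it was 0.84 (edgeR adjusted p = 0.00186) and was called. DESeq2 (adjusted p = 0.0326) and edgeR with a replicate block (adjusted p = 0.0145) also called it, and over all alternatives the adjusted p ran from 0.00186 to 0.216.

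Of the homeostatic genes that rose, Gjb6 was at 77.2, 79.4, 79.3 and 78.4 CPM in the controls and 92.4, 128, 102 and 109 CPM after refeeding. S100b was at 22.7, 23.2, 27.5 and 24 CPM in the controls and 33.8, 38.5, 35.4 and 29.2 CPM after refeeding. Id3 was at 10.8, 9.36, 16.7 and 14.1 CPM in the controls and 18.9, 28.3, 21 and 17.2 CPM after refeeding. None of these 3 overlapped between groups, with Id3 the closest, at 17.2 CPM in refed library 5 and 16.7 CPM in control library 4. The fold change was 0.46 ± 0.09 (SE, edgeR adjusted p = 0.00315) for Gjb6, 0.50 ± 0.10 (SE, edgeR adjusted p = 0.00583) for S100b and 0.76 ± 0.18 (SE, edgeR adjusted p = 0.02) for Id3. The Id3 call was lost without control library 2 or 3 or refed library 2.

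**Figure D4:**
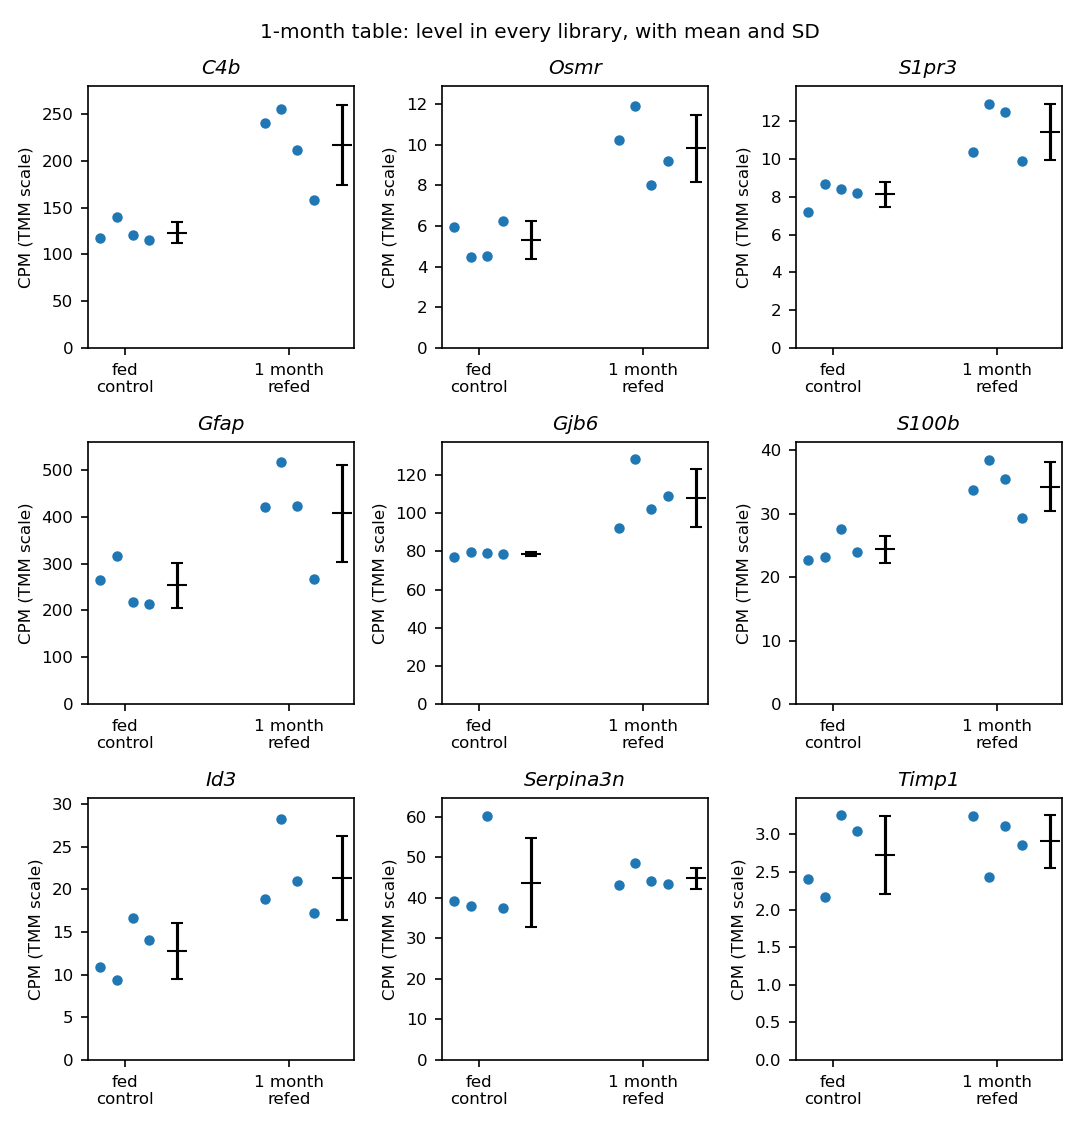
Levels of 9 members in the 1-month table. The horizontal axis gives the fed controls and the mice refed for 1 month, and the vertical axis CPM on the TMM scale, starting at 0. Blue points are libraries (4 per group), and the black bar is the mean with its SD. C4b, Osmr, S1pr3, Gjb6, S100b and Id3 do not overlap between the groups, whereas Gfap, Serpina3n and Timp1 do.

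The other 19 homeostatic genes were not called, with fold changes from -0.29 (Slc1a2) to 0.22 (Gja1). Of the reactive genes, Serpina3n was at 39.3, 38, 60.1 and 37.4 CPM in the controls and 43, 48.6, 44 and 43.3 CPM after refeeding, with a fold change of 0.04 ± 0.13 (SE, edgeR adjusted p = 0.886). Cd44 was at 20.6, 15.3, 15 and 12.3 CPM in the controls and 19.2, 19.6, 17.9 and 15.1 CPM after refeeding and overlapped as well. Lcn2 and Steap4 did not pass the filter. Lcn2 was at 0.096, 0.0774, 0.192 and 0.0823 CPM in the controls and 0.36, 0.287, 0.282 and 0.739 CPM after refeeding. Steap4 was at 0.096, 0.0774, 0.384 and 0.412 CPM in the controls and 0.504, 1.36, 0.565 and 0.422 CPM after refeeding. Both were higher in all 4 refed libraries, on counts too low for the test. Without refed library 2, the one with liver transcripts, the refed Steap4 mean moved from 0.713 to 0.497 CPM, beside 0.242 CPM in the controls.

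Genes of other reactive lists rose in the same libraries. All 4 tested further pan-reactive genes rose, with a median of 1.33. Vim, the intermediate filament vimentin, went from 62.2 ± 5.51 to 155 ± 43.3 CPM (SD, n = 4) and Cp, the ferroxidase ceruloplasmin, from 23.5 ± 7.63 to 92.6 ± 25.9 CPM. Of 10 genes reported for astrocytes after lipopolysaccharide 7 rose, among them Srgn and Gbp2. Of 9 reported after ischaemia 6 rose, among them Ptgs2. Of 8 complement genes 7 rose. In the gp130 and STAT3 pathway 1 of 11 rose, Il6st, which encodes gp130 itself, from 167 ± 11.1 to 212 ± 9.48 CPM. Of 32 further astrocyte genes 2 rose and 1 fell, with a median of 0.05.

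Meningeal markers moved with the group. They summed to 87.8 to 241 CPM in the controls and 635 to 1066 CPM after refeeding, 9 of 10 rose and none was at 0 in either group. Col1a2 went from 37.7 ± 9.66 to 148 ± 38.6 CPM (SD, n = 4). Summed endothelial markers were 444 to 527 CPM in the controls and 553 to 701 CPM after refeeding, with 5 of 10 called higher, and blood transcripts 1107 to 1843 and 1371 to 4323 CPM. Mural markers summed to 318 to 386 CPM in the controls and 445 to 634 CPM after refeeding, with 3 of 10 called higher and 1 lower. Oligodendrocyte markers summed to 1941 to 2693 CPM and 2679 to 4114 CPM, with 3 of 10 called higher and positive fold changes for all 10. Microglial markers summed to 276 to 338 CPM and 343 to 383 CPM, with none of 9 called. The 9 reactive members summed to 396 to 526 CPM in the controls and 507 to 870 CPM after refeeding, and the 22 homeostatic members to 9767 to 10551 and 9693 to 10718 CPM. The part of transcripts of these other cells in the rise of the reactive genes, or of Gjb6, S100b and Id3, was not tested.

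**Figure D5:**
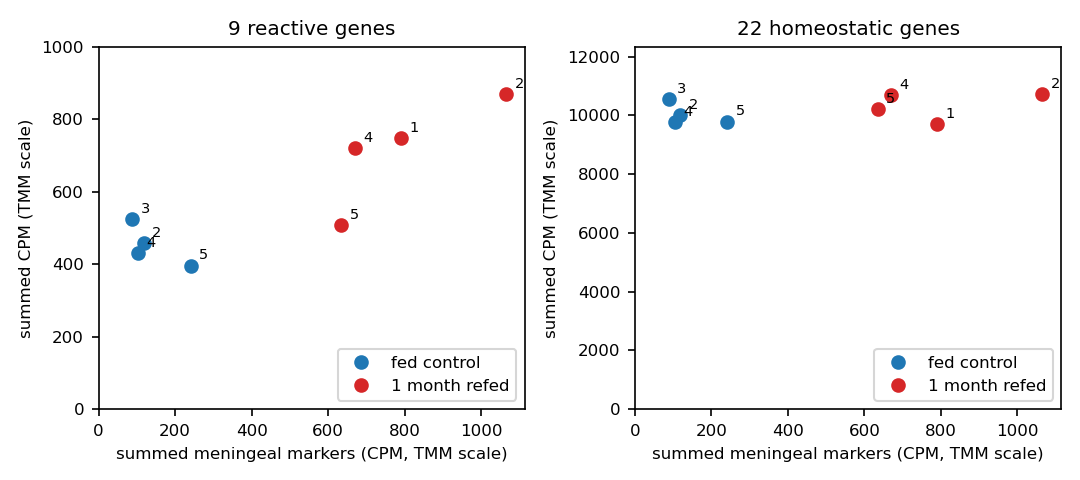
Summed level of the 9 reactive (left) and 22 homeostatic members (right) against summed meningeal markers, both in CPM on the TMM scale with axes from 0. Each point is a library of the 1-month table, numbered by its label, in blue for fed controls and red for refed mice. The groups stand apart on the meningeal axis, at up to 241 CPM and from 635 CPM, overlap on the reactive axis and share the homeostatic range.

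Without control library 5, which had the highest meningeal sum of the controls, 11 members were called among 2856 genes, against 6 among 1506. Refed library 2 had the highest value of its group for 20 of 29 tested members. Without it, 4 members were called among 775 genes (S100b, Gjb6, C4b and Osmr).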

How the data were processed

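Hypothalamic total RNA was depleted of ribosomal RNA and sequenced as directional libraries, per the labels' protocols. The authors deposited read counts per Ensembl gene in 3 tables, made with HISAT2 and featureCounts on mm10, per the submitters' processing notes. Versions and strand setting are not given in the sources used here. Of the table columns, 2 matched no labelled library and were not used, which left 30 libraries in 9 groups. The authors' own edgeR tables were not used.

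Counts of each table were scaled by TMM, filtered with filterByExpr and fitted with edgeR 4.0.16 (R 4.3.3; robust quasi-likelihood test, all groups of a table together, prior count 0.125), with Benjamini-Hochberg adjustment over all tested genes. The code was tested on simulated data. Counting error is smallest in the deepest libraries, and 1-month libraries were the shallowest. Replicates differed by more than counting noise (chi-square per degree of freedom 3.19 to 106 over 36 pairs). Alternatives were RLE scaling, library totals, DESeq2 1.42.0, no filter, 2 groups alone, a replicate block, a gene span offset and leaving out each library. The members and lists were chosen with earlier results of these data known. Every member was accounted for, with values per library for those called in a table, and at most 4 genes with the smallest adjusted p were named from each other list.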

Additional observations from a re-analysis of the deposited data

Results flagged for a closer look

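In groups of 4 libraries, 92 sets of a member and a group were examined for a library that stands far from the other 3, and 7 were found. Chance gives about 1 such set in 20. Serpina3n was at 60.1 CPM in control library 4 of the 1-month table, where the others were at 37.4 to 39.3 CPM. Lcn2 was at 0.192 CPM in the same library, against 0.0774 to 0.0960 CPM, and at 0.739 CPM in refed library 5, against 0.282 to 0.360 CPM. Steap4 was at 1.36 CPM in refed library 2 of the 1-month table, the one with liver transcripts, against 0.422 to 0.565 CPM. Fgfr3 was at 222 CPM in control library 2, against 192 to 197 CPM. Glul was at 1450 CPM in refed library 1, against 1681 to 1703 CPM. Gja1 was at 231 CPM in library 2 of 1 week of refeeding, against 195 to 199 CPM.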

How the results depend on the processing

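Of 58 member calls in the 9 comparisons, 32 were kept under every alternative, 26 were lost under at least 1 (24 of them without at least 1 single library) and 0 reversed. DESeq2 called 4 members from fed to 24 h (208 genes in all, against 7), 1 from 24 h to 72 h (1720 against 333) and 10 from fed to 72 h (4552 against 3072). With the gene span offset 10 members were called from fed to 72 h and 8 from fed to 72 h with cold, against 5 in each. The counts over all genes are not given for these 2 fits, so a change particular to the members is not shown. From 24 h to 72 h the offset gave 816 genes in all. From fed to 24 h, 16 genes were called with library totals, 13 without the filter and 13 with the span offset. Leaving out 1 library at a time gave 0 to 10 members from fed to 72 h (434 to 5446 genes), 2 to 7 from fed to 72 h with cold (932 to 5507 genes), 8 to 17 from 12 h to 1 week (589 to 3050 genes) and 4 to 11 at 1 month (775 to 2856 genes). It gave 6 to 10 from 1 h to 12 h, 16 to 19 from 1 h to 1 week and 0 in the other 3 comparisons. Counts over all genes in these runs are not given for 1 h to 1 week or for those 3 comparisons.

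The replicate numbers gave no consistent pairing: in no comparison did every same-numbered pair correlate above 0.1, and at 1 month every pair was below 0. Single pairs were higher, at 0.333 and 0.272 for libraries 2 and 3 from fed to 24 h and 0.258 for library 2 from 1 h to 1 week. The 1 week numbers follow the sample titles, which differ from the numbers in the library names, so pairing could not be checked there. With the replicate block, 0 members were called from fed to 24 h, 0 from 24 h to 72 h, 4 from fed to 72 h, 0 with cold added and 5 from fed to 72 h with cold. It gave 9, 14 and 17 in the refeeding comparisons, and its counts over all genes are not given for fasting or refeeding. At 1 month it gave 3 (Gjb6, Gfap and C4b; 408 genes in all against 1506), with only the shared numbers 2, 4 and 5 informing the contrast. The cause was not tested. Low counts limit Lcn2 and Steap4. Timp1 was listed at 0 in the deeper fasting and refeeding tables and was counted in the shallower 1-month table.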
